A study of Mus musculus with 118 samples.

Results

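The genes described here are 10 genes that make, sense or remove retinoic acid or encode COUP-TF nuclear receptors: Rara, Rarb, Rarg, Cyp26a1, Cyp26b1, Cyp26c1, Aldh1a2, Nr2f1, Nr2f2 and Nr2f6. They were chosen by name, from 26180 annotated mouse genes, and their curated RefSeq start sites on mm10, extended by 2500 bp to each side, and their gene bodies were compared with the peaks of 3 lists. RING1B is part of the catalytic core of PRC1, SUZ12 is a core subunit of PRC2, and PCGF2 is a subunit of canonical PRC1. The lists hold the positions of these proteins. They were made by calibrated ChIP-seq (cChIP-seq), which measures binding against added human HEK293T chromatin, in untreated mouse embryonic stem cells (ESCs) of the E14 background.

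By the sample labels, untreated PRC1CPM cells gave 3 samples for each of these proteins, and untreated PRC1CKO cells gave 3 more for SUZ12, all at 0 h and without 4-hydroxytamoxifen. PRC1CPM cells are 1 clone in which both Ring1a alleles already carry I50A/D53K, Ring1b can be switched from wild type to I53A/D56K, and Rosa26 drives a tamoxifen-dependent Cre. PRC1CKO cells are likewise 1 clone, lack Ring1a, and carry floxed Ring1b with the same Cre. Neither line is therefore wild type for RING1A, even when untreated. The whole series holds 118 samples in 42 groups, and the treated samples were not analysed here, so nothing below measures an effect of PRC1 catalysis.

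Retinoic acid is made from retinaldehyde by retinaldehyde dehydrogenases and is broken down by the CYP26 enzymes. Inside the nucleus it binds retinoic acid receptors, which pair with retinoid X receptors on DNA elements built from direct repeats, and it is widely used to make ESCs differentiate. COUP-TFs are orphan nuclear receptors of the developing nervous system, heart and vessels that bind related repeats. Polycomb complexes hold many developmental genes silent in ESCs, with PRC1 ubiquitylating histone H2A and PRC2 methylating histone H3, and they favour CpG-rich start sites.

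The repeats that retinoic acid receptors read were searched under the peaks, because several of these genes are classical retinoic acid targets. The element searched was DR5, a direct repeat of hexamers spaced by 5 bases, with each hexamer AGGTCA or AGTTCA or GGTTCA or GGGTCA, on both strands. The RING1B peaks of the 10 genes held 5 of them. Each is given below on the strand that reads as a direct repeat, with the hexamers in capitals (GRCm38.p6).
Rara, chr11:98960008-98960024, plus strand: AGTTCAgcaagAGTTCA
Rarb, chr14:16575513-16575529, minus strand: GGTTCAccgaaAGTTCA
Rarg, chr15:102250817-102250833, minus strand: GGTTCAaagtgAGGTCA
Cyp26a1, distal, chr19:37695909-37695925, plus strand: GGGTCAcaggcGGGTCA
Cyp26a1, proximal, chr19:37697776-37697792, minus strand: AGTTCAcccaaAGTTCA

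All 3 receptor genes and Cyp26a1 held an element, and no COUP-TF gene did. The Rarb element lay 37 bp before the downstream Rarb start, and the proximal Cyp26a1 element lay 16 bp before the Cyp26a1 start. The distal Cyp26a1 element was 1883 bp upstream of that start. At Rara the element was 447 bp upstream of the start at 98960471, and at Rarg it was 4317 bp upstream of the start at 102246500. Over the whole RING1B list there were 153 elements in 43803 kb, or 0.349 per 100 kb, against 5 in 173.5 kb, or 2.88 per 100 kb, under the peaks of the 10 genes. By peaks, 25.0% of 16 held an element, against 0.783% of all 18643. A wider peak has more room for an element, and these 16 ran up to 50684 bp, against a list median of 1495 bp. The genes were chosen by name and several are classical retinoic acid targets, so the choice itself favours such elements. No test was made of the difference. A match is a description of the letters and not evidence of a bound receptor.

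Promoters were printed for the genes whose element lay within 250 bp before to 50 bp after a start. Of all 26180 genes, 20 had an element there, 0.0764%, and 2 of the 10 genes did. The choice of genes by name bears on this share too, and it was not tested. The 250 bases before each of these starts are shown in the direction of transcription, in RefSeq's GRCm38.p6 sequence, with the element in capitals. In the Cyp26a1 promoter the element reads as its reverse complement.
Cyp26a1, chr19:37697558-37697807, plus strand: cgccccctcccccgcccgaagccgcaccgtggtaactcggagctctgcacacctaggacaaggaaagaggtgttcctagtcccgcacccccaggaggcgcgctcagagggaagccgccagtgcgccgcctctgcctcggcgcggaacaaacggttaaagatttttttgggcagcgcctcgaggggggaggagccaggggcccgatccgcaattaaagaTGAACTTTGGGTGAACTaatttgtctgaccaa
Rarb, chr14:16575477-16575726, minus strand: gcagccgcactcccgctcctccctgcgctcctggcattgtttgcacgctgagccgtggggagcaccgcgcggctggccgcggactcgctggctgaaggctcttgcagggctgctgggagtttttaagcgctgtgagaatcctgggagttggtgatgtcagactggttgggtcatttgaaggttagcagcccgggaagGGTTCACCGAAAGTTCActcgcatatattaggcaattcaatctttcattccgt

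These stretches held 20 CpG dinucleotides at Cyp26a1 and 16 at Rarb. The Cyp26a1 element covered bases 32 to 16 before the start, and the Rarb element bases 53 to 37. Both promoters lay under RING1B and SUZ12 peaks, and the Cyp26a1 promoter alone also lay under a PCGF2 peak.

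RING1B was found at the promoters of 9 of the 10 genes, against a background of 53.2% of all genes (95% Wilson interval 52.6% to 53.8%, counting error only). SUZ12 was at the promoters of 9, against 24.8% (24.3% to 25.3%). PCGF2 was at those of 5, against 13.5% (13.0% to 13.9%), and the same 5 genes, Cyp26a1, Cyp26c1, Aldh1a2, Nr2f1 and Nr2f2, had all 3 factors, against 13.4% (13.0% to 13.8%). The shares are therefore higher than the background in each list. However, the genes were chosen by name and lie in part in a shared domain, so no test was made of the difference. All 10 encode proteins, whereas the background also counts noncoding RNA genes and was not matched for this. Each list joins samples into 1 set of positions without heights, p-values or replicate values, so no error between replicates can be given, and a gene without a peak is not shown to lack binding. The only gene without a promoter peak in any list was Cyp26b1, described with the degradation enzymes.

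**Figure D1:**
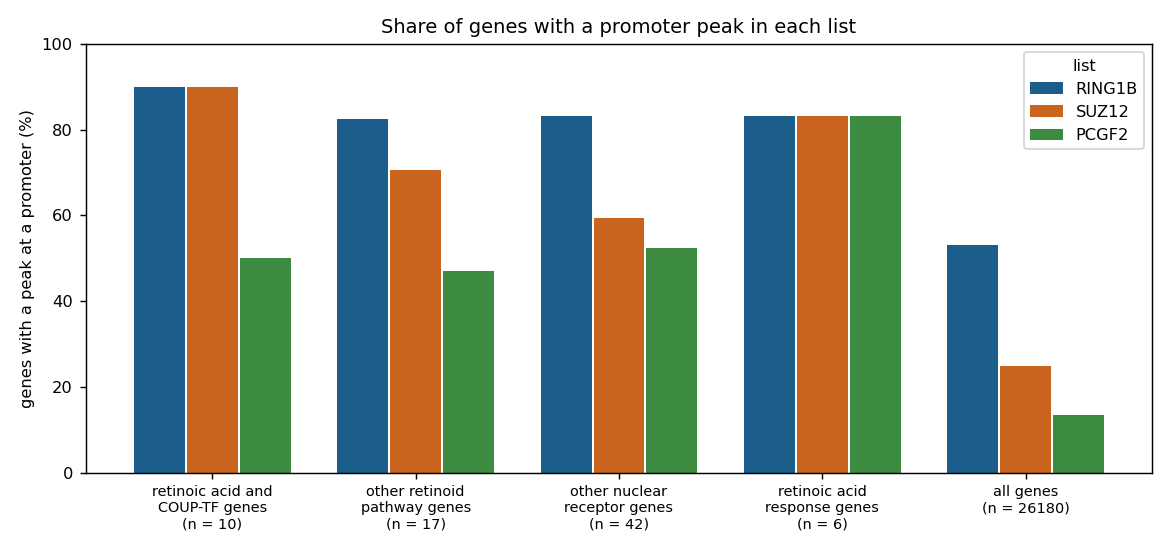
Percent of genes with a peak within 2500 bp of a start site in the RING1B, SUZ12 and PCGF2 lists, for the 10 retinoic acid and COUP-TF genes, 3 wider gene lists and all 26180 genes; lists share some genes. The 10 genes stand at 90.0% for RING1B and SUZ12 and at 50.0% for PCGF2, against 53.2%, 24.8% and 13.5% of all genes.

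Many of the peaks were wide. The widest promoter RING1B peak had a median width of 9118 bp over the 9 genes (range 1586 to 50684), against 1810 bp over all 13922 genes with one (interquartile range 1089.25 to 3374.75). For SUZ12 the median was 8309 bp (917 to 51777, 9 genes) against 3232 bp (1558 to 5860), and for PCGF2 16837 bp (5398 to 47948, 5 genes) against 2912 bp (1889 to 4735.25). When peaks within 3000 bp of each other were merged, the RING1B median rose to 19279 bp over these genes and was 1904 bp over all genes with a peak. When only peaks over the start base counted, the SUZ12 median rose to 14283.5 bp over 8 genes, against 4085 bp. Cyp26a1 and Cyp26c1 share a single peak in each list and both count in these medians. Peak calling differed between lists, so widths are set side by side but not compared across factors.

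**Figure D2:**
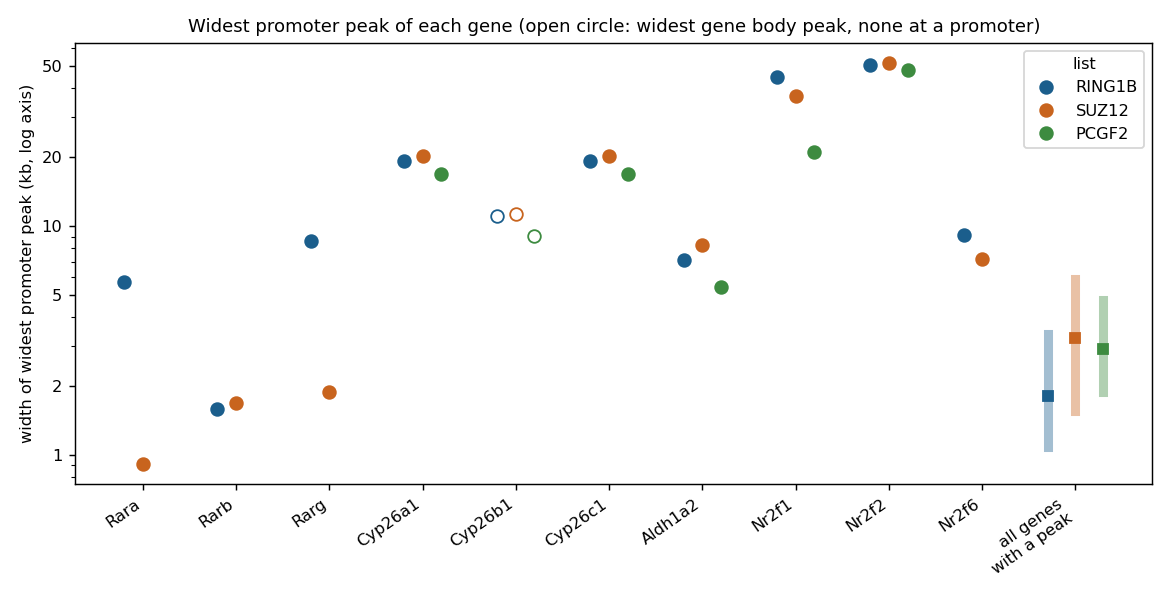
Width in kb, on a log axis, of the widest peak at a promoter of each gene in the RING1B, SUZ12 and PCGF2 lists; open circles at Cyp26b1 are gene body peaks, since it had none at a promoter. Squares and bars at the right give the median and interquartile range over all genes with a promoter peak, and Nr2f1, Nr2f2, Cyp26a1, Cyp26c1 and Aldh1a2 sit above the upper quartile in every list.

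The retinoic acid receptors are the hormone-dependent transcription factors of the pathway. At all 3 genes RING1B and SUZ12 were found at a promoter and PCGF2 was not, and at Rara and Rarg most RING1B peaks had no SUZ12. Each gene has several start sites, which give receptor isoforms with different N termini, and the starts of a gene differed in what covered them.

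Rara (chr11:98937696-98974942, plus strand, 37.2 kb) has 5 curated starts and had 4 RING1B peaks. The first, of 3384 bp (chr11:98936145-98939528), covered the starts at 98937696 and 98937718. The last, of 5707 bp (chr11:98959613-98965319), covered the internal starts at 98960471 and 98964872. Between them lay intronic peaks of 897 bp (chr11:98941515-98942411) and 1080 bp (chr11:98954170-98955249), and the start at 98939711 lay 183 bp outside a peak. SUZ12 had a single peak of 917 bp (chr11:98936012-98936928), which ended 768 bp upstream of the first start and took 23.2% of the first RING1B peak. So 25.6% of the Rara body lay under RING1B and none under SUZ12, and the nearest PCGF2 peak was 16.6 kb from the closest start.

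Rarb (chr14:16430839-17082331, minus strand, 651.5 kb) is the receptor gene best known for being induced by retinoic acid itself. Its RING1B peak of 1586 bp (chr14:16574407-16575992) and SUZ12 peak of 1685 bp (chr14:16574274-16575958) nearly coincided over the start at 16575476, the start with the DR5 element. SUZ12 took 97.9% of the RING1B peak, stopping 34 bp short of its upstream edge and running 133 bp past its downstream edge. The other start, at 17082331, was 506.3 kb from the nearest RING1B peak. CpG observed/expected, the CpG count relative to that given by the C and G content, was 0.776 in the 1 kb around the covered start and 0.0815 around the other. Because the gene is long, the peaks covered 0.243% and 0.259% of its body.

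Rarg (chr15:102234938-102257522, minus strand, 22.6 kb) had starts that differed in SUZ12. At the upstream start, 102257522, a RING1B peak of 4020 bp (chr15:102255319-102259338) held a SUZ12 peak of 1894 bp (chr15:102256622-102258515), 47.1% of its length. The internal start at 102246500 lay under a wider RING1B peak of 8645 bp (chr15:102242679-102251323), and the nearest SUZ12 peak was 10122 bp away. Another RING1B peak, of 990 bp (chr15:102235332-102236321), lay near the end of the gene. RING1B covered 52.4% of the body and SUZ12 3.99%.

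RING1B peaks with neither SUZ12 nor PCGF2 numbered 11541 in the list, with a median width of 1081 bp. The internal Rarg peak ranked 6th widest among them and the internal Rara peak 35th. The widest of all such peaks had 10449 bp. Both internal peaks held a DR5 element, and CpG observed/expected over them was 0.397 at Rarg and 0.389 at Rara. The other peaks without SUZ12 at Rara and Rarg, of 897, 1080 and 990 bp, were close to the median width.

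**Figure D3:**
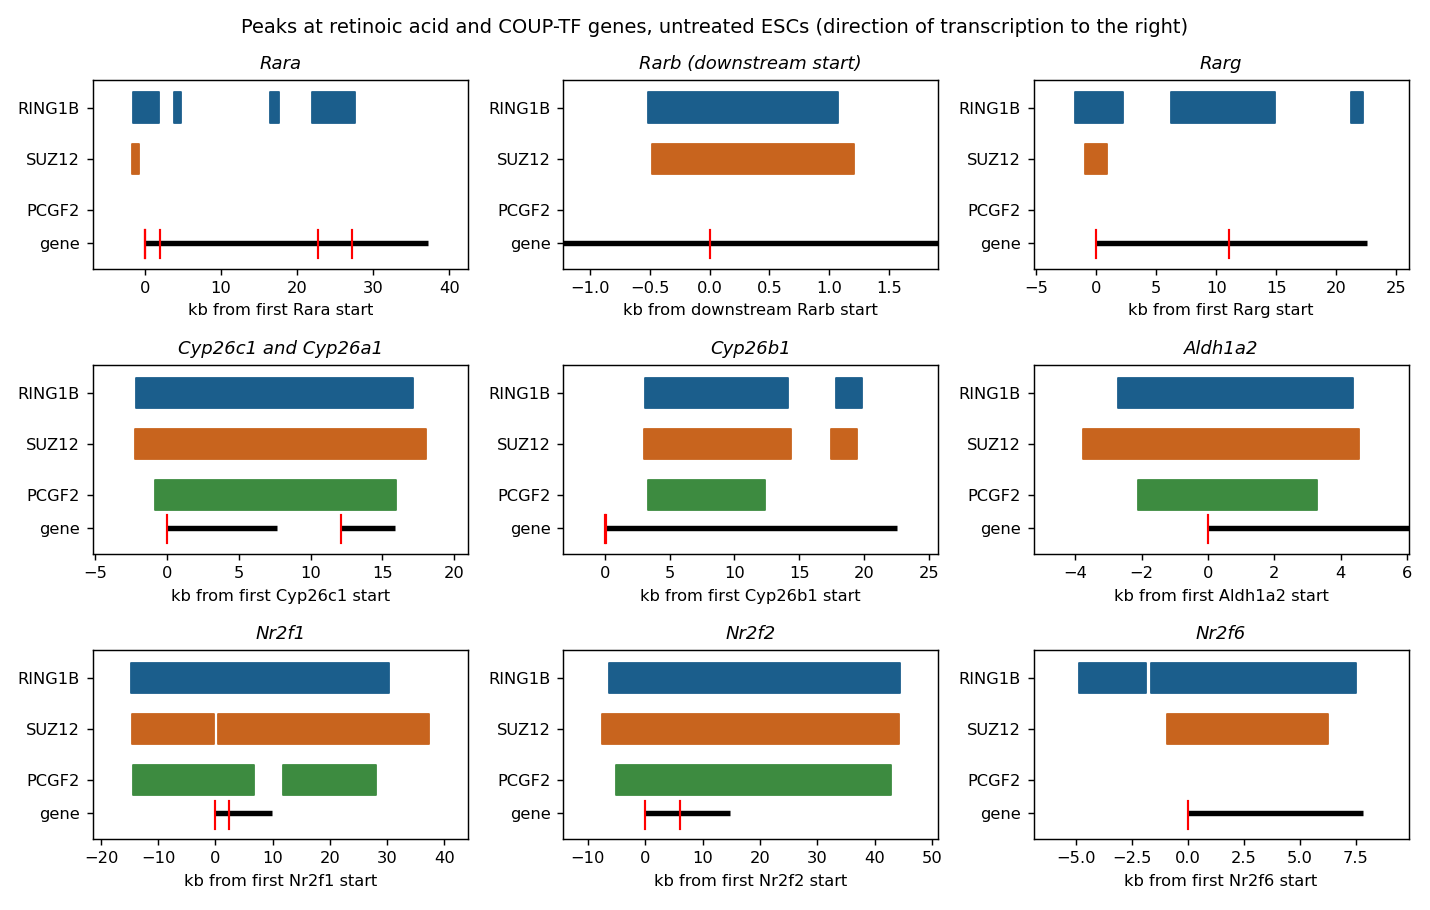
Peaks of the RING1B, SUZ12 and PCGF2 lists at each gene, in kb from the start named on each horizontal axis, with transcription to the right; black lines are gene bodies, red ticks curated start sites, and scales differ between panels. The Rarb panel shows the downstream start alone, and the Rarb and Aldh1a2 bodies run past the frame. Rara and Rarg have internal RING1B peaks without SUZ12, Cyp26b1 peaks begin inside the gene, and Nr2f1 and Nr2f2 lie whole under RING1B.

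Aldh1a2 encodes the main retinaldehyde dehydrogenase of the early embryo, the enzyme that makes retinoic acid. The gene (chr9:71215789-71296243, plus strand, 80.5 kb) had nested peaks around its single start. The RING1B peak had 7084 bp (chr9:71213066-71220149), the SUZ12 peak 8309 bp (chr9:71212029-71220337) and the PCGF2 peak 5398 bp (chr9:71213671-71219068). SUZ12 ran 1037 bp past RING1B upstream and 188 bp downstream, whereas PCGF2 stopped 605 bp and 1081 bp inside it. The start was CpG rich, with an observed/expected of 0.929. Only the front of the gene was covered, 5.42% of the body by RING1B, 5.65% by SUZ12 and 4.08% by PCGF2, and the start of Gm3458 lay under the same RING1B peak.

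Cyp26a1 and Cyp26c1 encode retinoic acid hydroxylases, which clear retinoic acid, and lie next to each other in the same orientation. Cyp26c1 (chr19:37685680-37693307) and Cyp26a1 (chr19:37697808-37701536), both on the plus strand, shared a single domain in all 3 lists. RING1B spanned 19279 bp (chr19:37683517-37702795), SUZ12 20258 bp (chr19:37683437-37703694) and PCGF2 16837 bp (chr19:37684819-37701655). The domain ranked 111th by width in the RING1B list, 111th in the SUZ12 list and 99th in the PCGF2 list. Both gene bodies lay under peaks of every list over 100% of their length. SUZ12 passed the RING1B edges by 80 bp upstream and 899 bp downstream, and PCGF2 ended 1302 bp and 1140 bp inside them. The starts differed in base composition, with a CpG observed/expected of 0.727 at Cyp26a1 and 0.329 at Cyp26c1.

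Cyp26b1, the remaining hydroxylase gene, had peaks of all 3 lists inside the gene but none at its curated promoters. The gene (chr6:84571414-84593908, minus strand, 22.5 kb) starts at 84593908 or 84593810. A RING1B peak of 11027 bp (chr6:84579803-84590829) began 2981 bp downstream of the nearer start, 481 bp outside the promoter window. A SUZ12 peak of 11350 bp (chr6:84579520-84590869) and a PCGF2 peak of 9014 bp (chr6:84581572-84590585) lay over the same stretch. Nearer to the end of the gene were a RING1B peak of 2027 bp (chr6:84574051-84576077) and a SUZ12 peak of 1986 bp (chr6:84574465-84576450). The body was covered to 58.0% by RING1B, 59.3% by SUZ12 and 40.1% by PCGF2. CpG observed/expected was 0.221 and 0.247 around the curated starts and 0.512 over the 11027 bp peak.

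The absence of Cyp26b1 from the promoter counts rests on which starts are counted and on the width of the window. In GENCODE's basic annotation, used after the data had been seen, starts at 84588638, 84588005 and 84587680 lay under all 3 peaks, while those at 84593908 and 84593746 did not. With that annotation, 10 of the 10 genes had RING1B and SUZ12 at a promoter and 6 had PCGF2. The shares of its 55413 genes were 30.7%, 14.3% and 7.71%. The annotation was taken with all its gene types, so these shares are not matched to the curated background. Windows of 5000 bp around the curated starts, also chosen after the data had been seen, gave the same counts of 10, 10 and 6, against 55.3%, 26.1% and 14.1% of all 26180 genes.

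**Figure D4:**
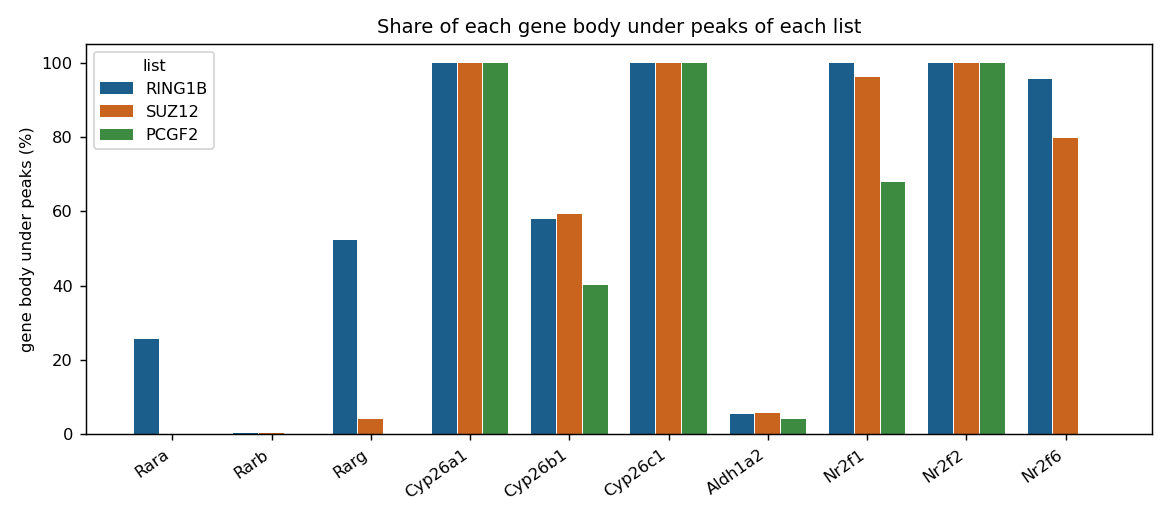
Percent of each gene body, from first to last annotated base, under peaks of the RING1B, SUZ12 and PCGF2 lists. Cyp26a1, Cyp26c1 and Nr2f2 reach 100% in every list, whereas Rarb stays under 1% and Rara has RING1B alone.

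Among the COUP-TF genes, Nr2f1 and Nr2f2 (COUP-TFI and COUP-TFII) had some of the widest domains of the lists, and Nr2f6, the more divergent relative, had a smaller one without PCGF2. Nr2f1 (chr13:78188973-78198873, minus strand) lay inside a RING1B peak of 45007 bp (chr13:78168581-78213587), the 10th widest. The other lists were broken there. SUZ12 had a peak of 36984 bp (chr13:78161503-78198486), 14th widest in its list, and one of 14280 bp (chr13:78199205-78213484), and the gap of 718 bp between them held the start at 78198873. That start had a CpG observed/expected of 0.862 and lay 332 bp from the nearer SUZ12 peak. SUZ12 also extended 7078 bp past the downstream edge of this RING1B peak, the largest overhang at any of the 10 genes. Another RING1B peak lay 732 bp from this peak, so the overhang is not shown to be free of RING1B.

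PCGF2 at Nr2f1 had a peak of 21151 bp over the promoter (chr13:78192148-78213298, 49th widest) and another of 16293 bp beyond the gene end (chr13:78170760-78187052), with 5095 bp between them. The gap in PCGF2 fell at another place than the gap in SUZ12 and covered the end of the gene, so RING1B covered 100% of the body, SUZ12 96.1% and PCGF2 67.9%. A830082K12Rik also starts within the RING1B peak.

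Nr2f2 (chr7:70351950-70366746, minus strand) was covered without a break by all 3 lists. The SUZ12 peak spanned 51777 bp (chr7:70322541-70374317) and the PCGF2 peak 47948 bp (chr7:70323937-70371884), and each was the 5th widest in its list, as was the RING1B peak of 50684 bp (chr7:70322406-70373089). PCGF2 took 94.6% of the RING1B peak, the highest share at these genes. The starts at 70366746 and 70360593 had a CpG observed/expected of 0.245 and 0.766, and both were covered by every factor. B130024G19Rik and Gm29683 start in the same domain, and the next RING1B peak was 31716 bp away.

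At Nr2f6 (chr8:71374119-71381952, minus strand) a RING1B peak of 9118 bp (chr8:71374456-71383573) held a SUZ12 peak of 7183 bp (chr8:71375702-71382884). A further RING1B peak of 2995 bp (chr8:71383816-71386810) lay upstream, 242 bp beyond the first, without SUZ12. The nearest PCGF2 peak was 142.9 kb away. The start had the highest CpG observed/expected of the 10 genes, 0.983. RING1B covered 95.7% of the body and SUZ12 79.8%.

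Counted by start site, 16 of 19 had RING1B within 2500 bp (53.3% of all 31645 curated starts), 12 had SUZ12 (24.7%) and 7 had PCGF2 (13.4%). A peak covered the start base itself at 15 for RING1B (47.0% of all starts), 9 for SUZ12 (18.5%) and 7 for PCGF2 (11.8%). Starts of a gene share its domain and are not independent. The 7 starts under PCGF2 belonged to Aldh1a2, Cyp26a1, Cyp26c1, Nr2f1 and Nr2f2, and their CpG observed/expected ran from 0.237 at Nr2f1 to 0.929 at Aldh1a2. At the first start of each gene the median was 0.611 (range 0.0815 to 0.983), against 0.512 over all genes (interquartile range 0.218 to 0.760). Over whole RING1B peaks it was 0.403 in the 16 peaks of these genes and 0.518 in the list. Many of these 16 peaks were far wider than the list median of 1495 bp, and the values were not matched for width.

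**Figure D5:**
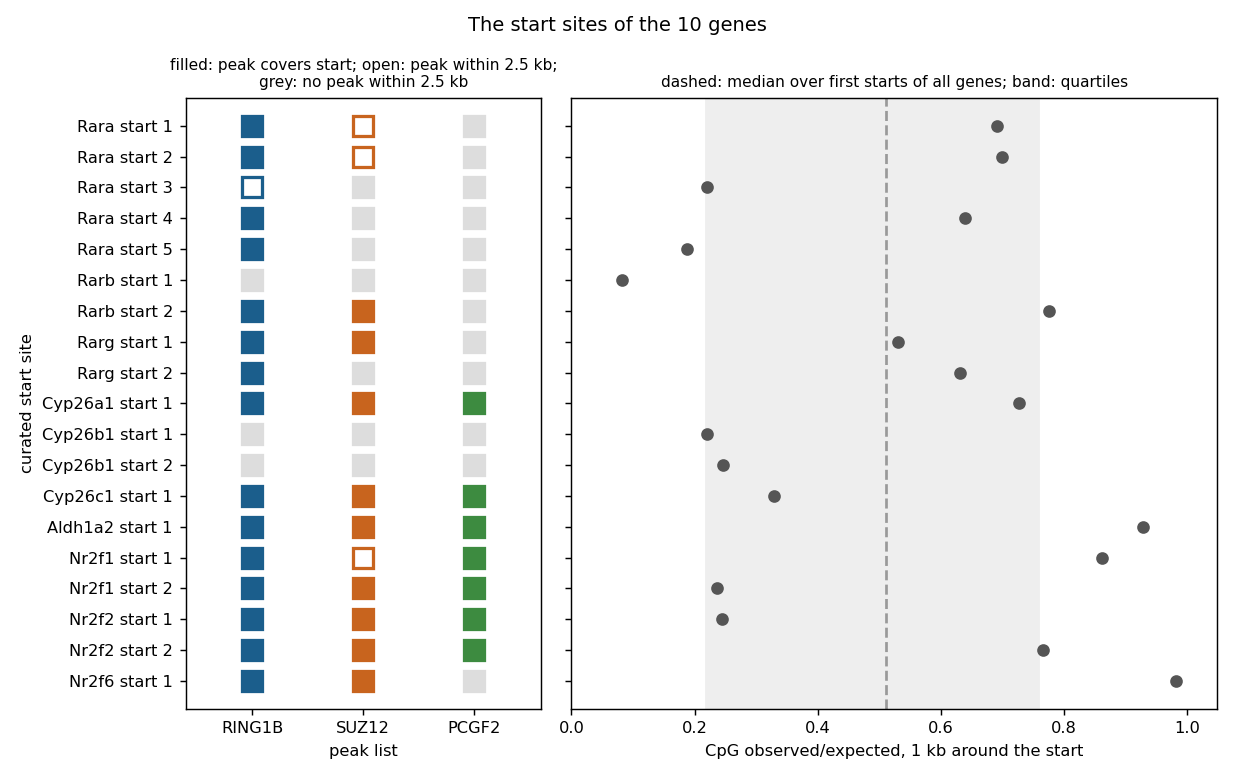
Left, the 19 curated starts of the 10 genes, numbered from the most upstream, with squares filled where a peak covers the start, open where one lies within 2.5 kb, and grey where none does. Right, CpG observed/expected in the 1 kb around each start, with the median (0.512) and interquartile band over the first starts of all genes.

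The 16 RING1B peaks fell into classes by what overlapped them. Of these, 5 had both SUZ12 and PCGF2 (19.0% of the whole list), 5 had SUZ12 only (19.0%), none had PCGF2 only (0.150%) and 6 had neither (61.9%). At all 5 peaks with PCGF2, the outer PCGF2 edges lay inside both RING1B edges, by 244 bp upstream at Cyp26b1 at the least and by 2179 bp downstream at Nr2f1 at the most. Of the 10 peaks with SUZ12, SUZ12 passed the upstream edge at 6, the downstream edge at 5 and both at 3. The lists were called by different rules, which can by themselves move edges.

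Gene bodies differed widely in how far peaks covered them. A RING1B peak lay somewhere in the body of 10 of the 10 genes, against 53.6% of all genes, a SUZ12 peak in 9 (24.7%) and a PCGF2 peak in 6 (13.8%). The median over the 10 genes was 76.9% for RING1B, 69.5% for SUZ12 and 22.1% for PCGF2, against 0.603%, 0.00% and 0.00% over all genes. RING1B covered 4 of them from end to end (3.57% of all genes are so covered), SUZ12 3 (2.49%) and PCGF2 3 (1.60%). By RING1B, Rara, Rarb and Aldh1a2 were at the low end (25.6%, 0.243% and 5.42%), and Cyp26a1, Cyp26c1, Nr2f1 and Nr2f2 at the high end (100%). The former genes span 37.2, 651.5 and 80.5 kb, and the latter 3.7, 7.6, 9.9 and 14.8 kb. Between them lay Rarg (52.4%), Cyp26b1 (58.0%) and Nr2f6 (95.7%), which span 22.6, 22.5 and 7.8 kb. By SUZ12, Rarg fell below Aldh1a2 (3.99% against 5.65%), and no PCGF2 peak lay in the bodies of Rara, Rarb, Rarg and Nr2f6. The share covered depends on gene length, and the background was not matched for it.

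Other genes of retinoid supply, transport and response were then set beside them. Of 17 such genes, 14 had RING1B at a promoter (82.4%, against 53.2% of all genes) and 12 SUZ12 (70.6%, against 24.8%). PCGF2 was at 8 (47.1%, against 13.5%), and those 8 had all 3 factors (13.4% of all genes). The share with all 3 factors was thus close to the 50.0% of the 10 genes. Their widest RING1B peaks were narrower than at most of the 10 genes, with a median of 3565 bp (1842 to 6661). The widest with all 3 factors were at Crabp1, a cytoplasmic retinoic acid binding protein, with 6661 bp, Aldh1a3, another retinaldehyde dehydrogenase, with 5247 bp, Lrat, which esterifies retinol, with 4720 bp, and the plasma retinol carrier Rbp4, with 4377 bp. The retinoid X receptor Rxra followed with 4213 bp and the corepressor Nrip1 with 3574 bp. Aldh1a1, Bco1 and Stra6 had no RING1B peak at a promoter.

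Of 42 other nuclear receptor genes, 35 had RING1B (83.3%, against 53.2% of all genes) and 25 SUZ12 (59.5%, against 24.8%). PCGF2 was at 22 (52.4%, against 13.5%), all with the other factors, a share again close to the 50.0% of the 10 genes. The median widest RING1B peak was 4145 bp (479 to 28728). The widest with all 3 factors was at Nr2e1, a neural stem cell receptor, with 28728 bp. Nr4a2, Nr5a2, Nr4a3, Nr5a1 and Esrrg followed with 20098, 13884, 13038, 10161 and 8963 bp. No gene of this list reached the RING1B widths of Nr2f1 and Nr2f2. Hnf4a, Hnf4g and Nr0b2 were among the 7 with no peak.

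Of 6 genes known to respond to retinoic acid, 5 had all 3 factors (83.3%, against 13.4% of all genes). Their median RING1B width was 22820 bp (3527 to 128589). Hoxb1, in a cluster of Hox genes, lay under a RING1B peak of 128589 bp. The Hox partners Meis1 and Meis2 had 23658 and 22820 bp, somewhat wider than the Cyp26a1 and Cyp26c1 domain, and Cdx1 and Dhrs3 had 4640 and 3527 bp. Stra8, a gene of meiotic entry, had no peak. As an indirect check of the cell type, 6 ESC genes were looked up, which should lack SUZ12 in undifferentiated cells. Of these, 4 had RING1B (66.7%, against 53.2% of all genes) and 2 had SUZ12 (33.3%, against 24.8%). Nanog and Zfp42 had no peak, Pou5f1 and Tfcp2l1 had RING1B alone, and Esrrb and Klf4 had all 3 factors. Esrrb and Klf4 thus went against that expectation, with SUZ12 at genes of the pluripotent state. With shares near those of all genes, the check says little about the label. The lists hold no expression that would check it directly.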

How the data were processed

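The deposited files are lists of peak starts and ends in base pairs. To make them, the authors mapped read pairs (Bowtie 2) against a joint mouse mm10 and human hg19 reference, discarded multiply mapped reads and duplicates (Sambamba), and ran MACS2 in broad mode with Input as control, dropping blacklisted regions. RING1B and SUZ12 peaks were called on merged replicates and kept where found in both lines, and RING1B peaks were further kept only where signal fell on tamoxifen in PRC1CKO cells, using data not analysed here. PCGF2 peaks were kept where found in every PRC1CPM replicate. These rules can change the number and width of peaks, and the lists give no depth.

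Peaks were compared, from base 1, with curated RefSeq transcripts, coding and noncoding, on GRCm38.p6, the assembly of mm10, and 0 ran past a chromosome end. An overlap was at least 1 bp. CpG content was taken 500 bp to each side of a start. The lists used hold no replicate values, so no test was made. Background shares carry 95% Wilson intervals. The genes, lists and alternatives were chosen with earlier results of these data known. Every member was named, and of each wider list up to 6 genes with all 3 factors, by RING1B width, and up to 3 without RING1B, in alphabetical order. One gene was left out of the response list and is not reported here. For a gene with all 3 factors, the gene with the nearest log10 widths was also named. Interval and motif code was tested on simulated data. Python 3.11.15, NumPy 2.4.6, statsmodels 0.14.6 and matplotlib 3.10.9 were used.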

Additional observations from a re-analysis of the deposited data

How the results depend on the processing

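Of 148 alternatives to 31 results, 142 stayed within 1.5 times the reported value. Of the others, the median widest RING1B peak of the 9 genes rose to 19279 bp when peaks within 3000 bp were merged, and the median widest SUZ12 peak rose to 14283.5 bp when only peaks over the start base counted, which leaves fewer genes. With all RefSeq transcripts, predicted ones included, 39 starts of these genes were counted in place of 19, and 35 had RING1B, 27 SUZ12 and 17 PCGF2, or 89.7%, 69.2% and 43.6%, against 48.0%, 22.4% and 12% of all 78787 starts. With hexamers spaced by 1 or 2 bases, 0 of the 10 genes had an element near a start, against 2 with a spacing of 5. Over all settings the number of the 10 genes with RING1B ran from 8 to 10, with SUZ12 from 8 to 10, and with PCGF2 or all 3 factors from 5 to 6. Some alternatives had little room to move. Merging peaks, for example, left the numbers of all genes with RING1B, SUZ12 and PCGF2 at a promoter at 13922, 6487 and 3522. The settings with GENCODE transcripts or windows of 5000 bp, 16 alternatives, were chosen after seeing the data. No paired analysis was possible because every list is a single merged set of positions, and for the same reason no replicate could be left out. Weak binding below the authors' peak threshold is not seen in these lists.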

Other observations

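Among the 3508 genes with all 3 factors at a promoter, the gene with the most similar set of widths was found for each of the 5 genes, as the smallest distance between log10 widths of the widest RING1B, SUZ12 and PCGF2 promoter peaks. For the Cyp26a1 and Cyp26c1 domain it was Foxd2, a forkhead transcription factor gene, with 19643, 20077 and 16605 bp (distance 0.0108). Aldh1a2 was nearest to Hapln4, with 7252, 8419 and 5202 bp (0.0199). Nr2f1 was nearest to Zic1, a zinc finger gene of the dorsal neural tube, with 48321, 41497 and 22659 bp (0.0659). Nr2f2 was nearest to Hand2, a gene of heart and limb development, with 45577, 46064 and 41119 bp (0.0957).

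Widths in the 3 lists are given side by side for a pair of wider-list genes chosen after their values were seen. The widest promoter peaks of Hoxb1 had 128589 bp for RING1B, 128663 bp for SUZ12 and 5124 bp for PCGF2. Those of Nr5a2 had 13884 bp for RING1B, 1371 bp for SUZ12 and 7954 bp for PCGF2. Further peaks over the same stretches are not given, so the widths do not show how much of a domain each factor covered. Peak calling rules differed between the lists, so these widths were not compared across factors.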
